A study of Arabidopsis thaliana with 9 samples.

Results

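AAE15, AAE16 and 4CL8 of Arabidopsis thaliana were examined as 3 of the 13356 genes that a named probe set represented in an expression study of young anthers. The genes were taken by locus, AAE15 as AT4G14070, AAE16 as AT3G23790 and 4CL8 as AT5G38120, and all 3 were found, each with 1 probe set that carries no suffix for probes shared between genes. They were picked with their signal in these same arrays and their differences among the genotypes already known, so those values are given as a description, without a test. Levels and differences are on the log2 scale throughout, where 1 unit is a 2-fold difference of signal.

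The samples were dissected anthers at stages 4 to 7 from dyt1 mutants, ams mutants and wild type (Columbia, Col), with 3 arrays of each genotype that the labels call biological replicates. The plants were 3 to 4 weeks old and grown at 22 °C with 16 hours of light and 8 hours of darkness. Both mutants are named for genes of basic helix-loop-helix transcription factors that act in the tapetum, the layer of the anther wall next to the developing pollen; the alleles of both mutants, the background of the mutants beyond those names and any pooling of plants are not given in the sources used here. AMS itself stood at 4.80 ± 0.85 in dyt1 arrays, 9.45 ± 0.14 in arrays labelled ams and 7.73 ± 0.19 in wild type (SD, n = 3 each), so the gene named by the ams label was not lower in those arrays. The position of that probe set against the lesion is unknown here, so this level does not check the label. DYT1 had no named probe set and was not analysed here.

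AAE15, AAE16 and 4CL8 belong to the adenylate-forming enzymes, which activate a carboxylic acid by joining it to AMP and then pass it to a thiol, usually that of coenzyme A or of acyl carrier protein. AAE15 encodes a plastid enzyme that attaches free fatty acids to acyl carrier protein, which returns them to the plastid elongation cycle, and AAE16 is its closest relative. 4CL8 belongs to a different branch, the proteins resembling 4-coumarate:CoA ligase, the enzyme that feeds the phenylpropanoid pathway. In anthers such activation steps are known for supplying the tapetum with lipid and phenolic precursors of the pollen wall and coat.

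Array controls split every genotype but ams. Signal of the control for 25S ribosomal RNA lay between 5.51 and 9.59 in 4 arrays (dyt1 1 and 3, wild type 1 and 2) and between 11.5 and 12.4 in the other 5 (dyt1 2, all ams-labelled arrays, wild type 3). The spike-in controls had means of 3.73 for wild type 1, 3.71 for wild type 2 and 5.90 to 6.39 elsewhere, and the 3' minus 5' difference of the actin control was 2.45 and 2.64 in wild type 1 and 2 against 3.61 to 4.13 elsewhere. Over all probe sets dyt1 1 and 3 correlated at 0.992 with each other but at 0.929 and 0.939 with dyt1 2, the ams-labelled arrays at 0.983 to 0.985 among themselves, and wild type 1 and 2 at 0.989 with each other but at 0.939 and 0.930 with wild type 3. For this reason the differences of AAE15, AAE16 and 4CL8 are also given within the arrays of low and of high 25S signal. The division follows the 25S signal only. Deviations of dyt1 2 and wild type 3 from their group means correlated at -0.05 over all tested probe sets. Lower quartiles of the arrays ran from 4.58 to 4.77, and a group mean at or under 4.77 is taken as not told from background. All 3 genes lay above that level in each genotype, and all 3 passed a filter on dim probe sets.

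AAE16 was the member with the largest difference from wild type, and its signal was lower in both mutants. It read 7.66, 7.57 and 7.43 in dyt1 arrays 1, 2 and 3. In the ams-labelled arrays it read 7.99, 7.53 and 7.56. In wild type it read 8.63, 8.75 and 8.95. Every one of the 6 mutant arrays lay below every wild-type array, and the dyt1 and ams-labelled ranges overlapped each other.

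The mean of AAE16 was 7.55 ± 0.12 in dyt1, 7.70 ± 0.26 in ams-labelled and 8.78 ± 0.16 in wild-type arrays (SD, n = 3 each). Its difference from wild type was -1.23 in dyt1, a 2.34-fold lower signal, and -1.08 in the ams-labelled arrays, a 2.12-fold lower signal. Both are several times the spread between arrays of a genotype. The highest dyt1 array stayed 0.97 below the lowest wild-type array, and the highest ams-labelled array, ams 1, stayed 0.64 below it. For comparison, 8.26% of all 22746 tested probe sets had 3 dyt1 values entirely below the 3 wild-type values, 16.3% had this in the ams-labelled arrays, and 3.79% had all 6 mutant values below all 3 of wild type. Because AAE16 was chosen with this contrast known, nothing is read from its place among them.

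dyt1 and ams-labelled anthers could not be separated by AAE16. Their means differed by -0.14 (dyt1 minus ams), less than the SD within the ams-labelled arrays, and the range from 7.43 to 7.66 in dyt1 overlapped that from 7.53 to 7.99 in the ams-labelled arrays. In order of level, wild type came highest, then the ams-labelled arrays, then dyt1, and the lower 2 of these neighbours do not differ beyond their spread.

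AAE15 showed no comparable difference. It read 8.08, 7.79 and 7.82 in dyt1 arrays 1, 2 and 3. In the ams-labelled arrays it read 8.08, 8.08 and 7.62. In wild type it read 7.65, 7.69 and 7.99. The 3 ranges overlapped, and both the lowest array of the 9 (7.62) and the highest (8.08) were ams-labelled.

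The mean of AAE15 was 7.90 ± 0.16 in dyt1, 7.93 ± 0.27 in ams-labelled and 7.78 ± 0.19 in wild-type arrays (SD, n = 3 each). Its difference from wild type was 0.12 in dyt1 (1.09-fold) and 0.15 in the ams-labelled arrays (1.11-fold), both smaller than the SD of any of the 3 genotypes. All 9 arrays fell within 0.46 of one another, so the order of the 3 means (ams-labelled, dyt1, wild type) separates no neighbours.

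The close relatives AAE15 and AAE16 therefore had unequal differences in the same arrays. The AAE16 difference lay below that of AAE15 by -1.34 in dyt1 against wild type and by -1.24 in ams-labelled against wild type, but by only -0.11 in dyt1 against ams-labelled arrays. Comparing differences rather than levels avoids setting the brightness of one probe set against that of another.

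4CL8 had its highest mean in the ams-labelled arrays. It read 5.71, 5.07 and 5.56 in dyt1 arrays 1, 2 and 3. In the ams-labelled arrays it read 5.54, 6.06 and 5.83. In wild type it read 5.27, 5.13 and 5.06. The ams-labelled arrays all lay above wild type, while dyt1 spanned both, with dyt1 2 at the wild-type level and dyt1 1 and 3 among the ams-labelled values.

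The mean of 4CL8 was 5.45 ± 0.33 in dyt1, 5.81 ± 0.26 in ams-labelled and 5.15 ± 0.10 in wild-type arrays (SD, n = 3 each). Its difference from wild type was 0.65 in the ams-labelled arrays (1.57-fold), with a gap of 0.27 between the nearest arrays, and 0.30 in dyt1 (1.23-fold), less than the SD of the dyt1 arrays. Over all probe sets 13.1% had 3 ams-labelled values entirely above the 3 of wild type, and again nothing is read from this for a gene chosen by its values. The dyt1 minus ams difference was -0.36, with overlapping ranges. In order of level the ams-labelled arrays came first, then dyt1, then wild type; neither pair of neighbours separates, and only the ends of the order do.

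**Figure D1:**
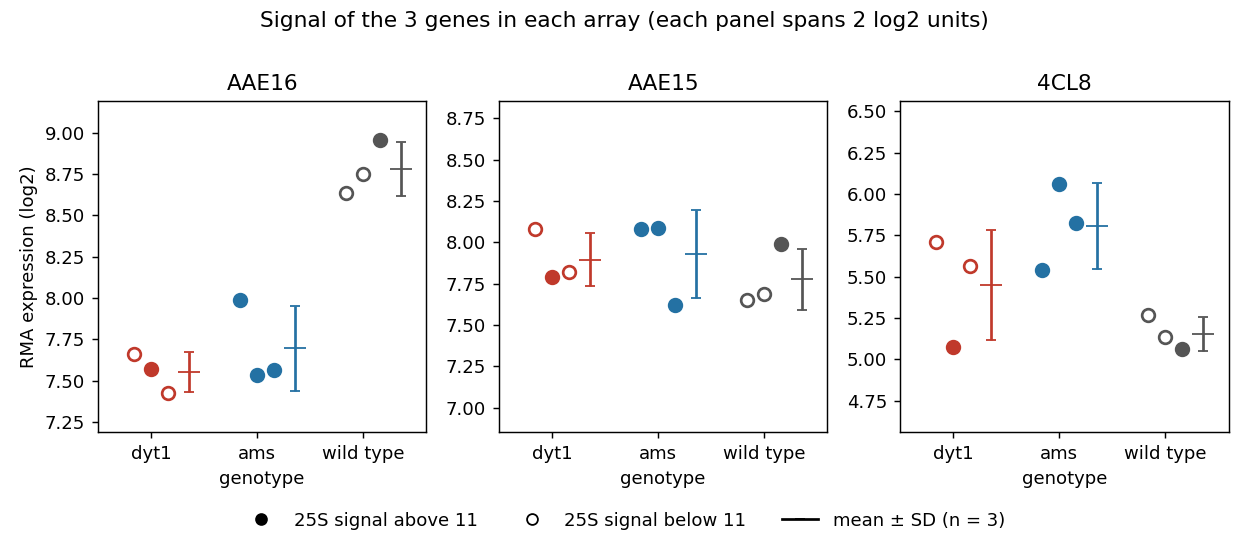
RMA signal (log2) of AAE16, AAE15 and 4CL8 in each array by genotype, with filled points for arrays whose 25S control lies above 11, open points for those below, and a bar for mean ± SD of 3 arrays; every panel spans the same number of log2 units. AAE16 lies at 7.43 to 7.99 in the 6 mutant arrays and 8.63 to 8.95 in wild type, AAE15 overlaps in all genotypes, and 4CL8 is separated only between ams-labelled and wild-type arrays.

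The AAE16 difference was present on both sides of the 25S division. Within the low 25S arrays its mean was 7.55 in dyt1 1 and 3 and 8.69 in wild type 1 and 2, a difference of -1.15. Within the high 25S arrays dyt1 2 alone differed from wild type 3 alone by -1.38, and the ams-labelled arrays differed from wild type 3 by -1.26. Since no ams-labelled array had low 25S signal, that contrast rests on 1 wild-type array in its own set, and spike-in level and genotype cannot be told apart among the low 25S arrays.

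AAE15 and 4CL8 were not as even. For AAE15 the dyt1 minus wild type difference was 0.28 in the low 25S arrays and -0.20 in the single high 25S pair, so its sign turned, and the ams-labelled minus wild type 3 difference was -0.06. For 4CL8 the dyt1 minus wild type difference was 0.44 in the low 25S arrays and 0.01 in the high 25S pair. Between dyt1 2 and the ams-labelled arrays, all of high 25S signal, the difference was -0.12 for AAE16, -0.14 for AAE15 and -0.73 for 4CL8. The 4CL8 difference of the ams-labelled arrays from wild type 3 was 0.75, as large as against all wild-type arrays. In dyt1 the only array of high 25S signal was the one with the lowest 4CL8, and the part of the array set in this was not tested. With 25S set as a block over all arrays, the ams-labelled minus wild type difference was -1.18 for AAE16, 0.10 for AAE15 and 0.89 for 4CL8.

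**Figure D2:**
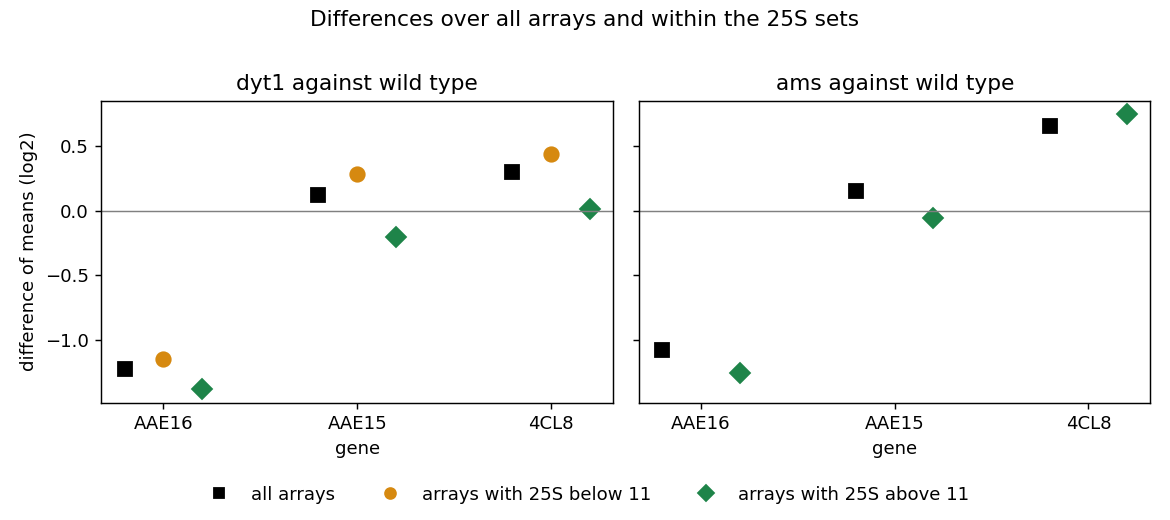
Differences of group means from wild type (log2) for AAE16, AAE15 and 4CL8 over all arrays (squares), within arrays with the 25S control below 11 (circles) and within those above 11 (diamonds, against wild type 3 alone). AAE16 runs from -1.08 to -1.38 in every subset, AAE15 changes sign between subsets, and 4CL8 in dyt1 is 0.44 in one subset and 0.01 in the other.

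Leaving out single arrays did not change these patterns for AAE16 but moved the small differences of the other genes. Without any 1 array the AAE16 difference ran from -1.30 to -1.14 in dyt1 and from -1.23 to -0.996 in the ams-labelled arrays; because the groups do not overlap, omission could not turn its sign. 4CL8 in dyt1 moved to 0.16 without dyt1 1 and to 0.48 without dyt1 2, and in the ams-labelled arrays it ran from 0.53 to 0.79. AAE15 ran from 0.03 to 0.23 in dyt1 and from 0.08 to 0.31 in the ams-labelled arrays. Centring each array on its median lowered every difference from wild type by 0.11 in either mutant, which gave -1.33 and -1.197 for AAE16, 0.01 and 0.04 for AAE15 and 0.19 and 0.54 for 4CL8 in dyt1 and ams-labelled arrays.

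**Figure D3:**
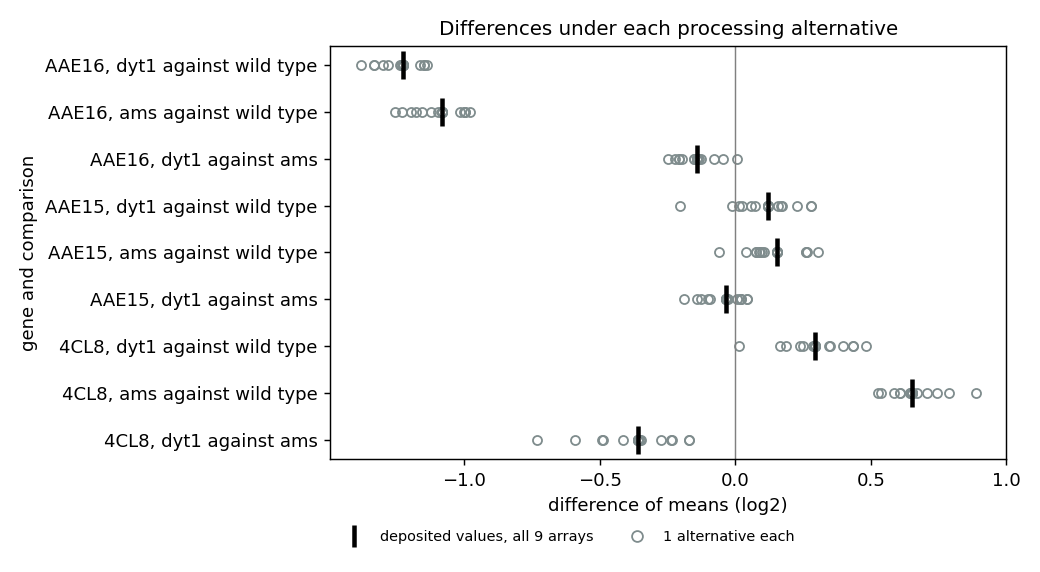
Difference of group means (log2) of each gene in each comparison from the deposited values (vertical bar) and under each processing alternative or omission (open circles). Circles on the bar include alternatives that cannot move the difference. AAE16 stays between -1.38 and -0.98 against wild type in either mutant, whereas the AAE15 circles fall on both sides of 0 in each comparison.

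The summed signal of tapetum markers was lower in the same 6 arrays as AAE16, though not each marker was. For the 6 of 10 listed tapetum markers with a probe set, the summed signal was 7.93 to 12.5 in dyt1, 11.8 to 13.6 in ams-labelled and 14.4 to 14.7 in wild-type arrays (log2 of the sum). Such a sum mostly reflects the brightest markers, in wild type AT5G62080 (mean 13.02) and AT5G07230 (mean 12.99). The median difference of these 6 markers was -4.24 in dyt1, but -2.81 without dyt1 2. It was -1.35 in the ams-labelled arrays, but -0.82 without ams 2. All 6 differences were negative in dyt1, against 4 negative and 2 positive (ATA27 at 2.30 and AMS at 1.72) in the ams-labelled arrays. Against wild type limma called only AMS, lower in dyt1 and higher in the ams-labelled arrays, where 0.193% and 3.51% of all probe sets were called. Between dyt1 and ams-labelled arrays it called ATA27, AMS and AT5G52160, all lower in dyt1 (limma adjusted p = 0.0151, 0.000288 and 0.0450), where 4.87% of all probe sets were called. ATA27, an anther beta-glucosidase, stood at 3.69 to 4.00 in dyt1, a level not told from background. It stood at 9.09 to 11.99 in ams-labelled arrays (mean 10.9) and at 7.16, 7.13 and 11.6 in wild type 1, 2 and 3. Its positive difference in the ams-labelled arrays therefore rests on wild type 1 and 2, as wild type 3 lies above the ams-labelled mean. Each of the 6 measured markers had its lowest dyt1 value in dyt1 2, the array that stood apart. AT5G07230, for example, ranged from 4.68 to 11.1 in dyt1. In whole anthers, fewer cells of a type and less RNA per cell cannot be told apart, and the part of the tapetum markers in the AAE16 difference was not tested.

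The other marker lists differed less. The summed signal of SPO11-1 and SDS, the 2 of 9 meiocyte genes with a probe set, was 6.11 to 6.90 in dyt1, 6.20 to 7.26 in ams-labelled and 5.90 to 7.37 in wild-type arrays. SPL, a regulator of early anther cell fate and the 1 of 4 stamen genes measured, was 9.11 to 9.28 in dyt1, 8.38 to 9.16 in ams-labelled and 8.78 to 9.59 in wild-type arrays. INO, the ovule gene and 1 of 4 carpel and ovule markers, was 4.67 to 5.33 in dyt1, 5.19 to 5.93 in ams-labelled and 5.63 to 6.26 in wild-type arrays, and its part in the AAE16 difference was not tested. The 2 of 6 green tissue markers summed to 12.2 to 12.7 in dyt1, 12.7 to 13.0 in ams-labelled and 12.2 to 12.6 in wild-type arrays, with LHCB4.2, a light-harvesting protein, higher in ams-labelled than in wild-type arrays by 1.23 (limma adjusted p = 0.00908). The 2 measured of 6 reference genes summed to 10.072 to 10.264 in dyt1, 9.647 to 9.684 in ams-labelled and 9.727 to 10.069 in wild-type arrays, so these ranges did not overlap. AT2G28390 differed from wild type by 0.36 in dyt1 and -0.02 in ams-labelled arrays, AT4G34270 by 0.16 and -0.44. Neither was called, and the 4CL8 difference of 0.30 in dyt1 was smaller than the largest of these.

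The rest of the superfamily and its pathways were read from lists of 99 genes, of which 22 had a named probe set, and these genes were tested with limma over all 22746 probe sets. In dyt1 against wild type 0 of the 22 were called at an adjusted p under 0.05, where 0.193% of all probe sets were called. An unadjusted p under 0.05 was found for 3 of the 22 and for 3300 of all 22746 probe sets. With array weights limma called 8 of the 22 and 8744 of all 22746 probe sets. In ams-labelled against wild-type arrays 4 of the 22 rose and 0 fell, against 3.51% of all probe sets called. In dyt1 against ams-labelled arrays 1 was higher and 2 were lower, against 4.87% of all probe sets called. The median difference of the 22 was 0.11, 0.23 and -0.10 in these comparisons, beside 0.05, -0.05 and 0.07 over all probe sets. With so few genes measured, the counts describe these genes only.

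Of 18 other acyl-activating enzymes and acetyl-CoA synthetase, 5 were measured and 2 rose in the ams-labelled arrays. AT2G17650 stood at 5.32, 6.09 and 5.53 in dyt1, at 6.29, 6.68 and 6.64 in ams-labelled and at 5.43, 5.24 and 5.24 in wild-type arrays. It rose by 1.23 in the ams-labelled arrays (SE 0.21, limma adjusted p = 0.0190), with all 3 above every other array. Of all probe sets, 13.1% had the 3 ams-labelled values entirely above wild type, and the share above both other genotypes was not computed. The call of AT2G17650 was lost without wild type 1 or 2 or without ams 2 or 3, with adjusted p values from 0.0664 to 0.0884, and with 25S set as a block (adjusted p = 0.0602).

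AT1G21540 was higher in every mutant array than in any wild-type array. It read 8.74, 8.19 and 8.10 in dyt1, 8.16, 8.34 and 8.84 in ams-labelled and 6.63, 6.72 and 7.62 in wild-type arrays. The share of all probe sets with all 6 mutant values above wild type was not computed. For the ams-labelled arrays alone it was 13.1%. AT1G21540 rose by 1.46 in the ams-labelled arrays (SE 0.31, limma adjusted p = 0.0425), while the dyt1 difference of 1.35 did not pass (limma adjusted p = 0.124). The call was lost in 7 of the 9 omissions of 1 array, all but those of wild type 3 and dyt1 2, with adjusted p values up to 0.167. It was also lost with a floor on dim values (0.0537), with only these groups fitted (0.0615), with 25S set as a block (0.123) and within the high 25S arrays, where the difference was 0.83 (0.177). ACS, a plastid acetyl-CoA synthetase, AT1G75960 and AT1G21530 did not pass in any comparison, and AT1G21530 was not told from background. Their differences lay between -0.41 and 0.39 against wild type, the first for ACS and the second for AT1G75960, both in the ams-labelled arrays.

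Of 12 4-coumarate:CoA ligases and relatives, the branch of 4CL8, 7 were measured, and the true ligases 4CL1, 4CL2, 4CL3 and 4CL5 and the pollen wall enzyme ACOS5 were not analysed here. AT1G20490 stood at 4.22, 4.75 and 4.22 in dyt1, at 6.26, 5.65 and 6.47 in ams-labelled and at 4.65, 4.73 and 5.19 in wild-type arrays. It rose by 1.27 in ams-labelled against wild-type arrays (SE 0.26, limma adjusted p = 0.0376) and was lower in dyt1 than in ams-labelled arrays by a difference of -1.73 (limma adjusted p = 0.00963). As its dyt1 mean is not told from background, the second value is only a difference of signal. The rise was lost without wild type 1 or 2, dyt1 1 or 3, or ams 1 or 3 (adjusted p up to 0.156), with median centring (0.0527), with only these groups fitted (0.0540), with 25S set as a block (0.0968) and within the high 25S arrays (0.184). The call between the mutants was lost without dyt1 3 (0.0502) or ams 1 (0.0503) and within the high 25S arrays (0.0533).

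Its chromosomal neighbour AT1G20480 ran the other way. It read 6.14, 6.15 and 6.33 in dyt1, 5.63, 5.45 and 5.43 in ams-labelled and 5.89, 5.98 and 5.998 in wild-type arrays, so that no 2 genotypes overlapped. The share of all probe sets with this was not computed, though 16.3% had the ams-labelled values entirely below wild type. For AT1G20480 dyt1 lay above the ams-labelled arrays by 0.70 (SE 0.13, limma adjusted p = 0.0213). That call was lost without dyt1 1 or 3 or any 1 of the ams-labelled arrays (adjusted p up to 0.0962), with a variance trend (0.0705) and within the high 25S arrays (0.0734), and the differences of 0.25 in dyt1 and -0.45 in the ams-labelled arrays from wild type did not pass.

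OPCL1, which activates a jasmonate precursor in peroxisomes, had values from 5.08 in wild type 3 to 7.61 in ams 2 and did not pass (0.10 in dyt1, limma adjusted p = 0.939, and 0.79 in ams-labelled arrays, limma adjusted p = 0.342). AT4G05160 had differences of 0.03 and 0.71, with all 3 ams-labelled arrays (9.97 to 10.2) above wild type (9.17 to 9.70), and did not pass either (limma adjusted p = 0.170 in ams-labelled arrays). Such a separation was found for 13.1% of all probe sets. AT1G20500, AT4G19010 and AT5G63380 were not called in any comparison.

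**Figure D4:**
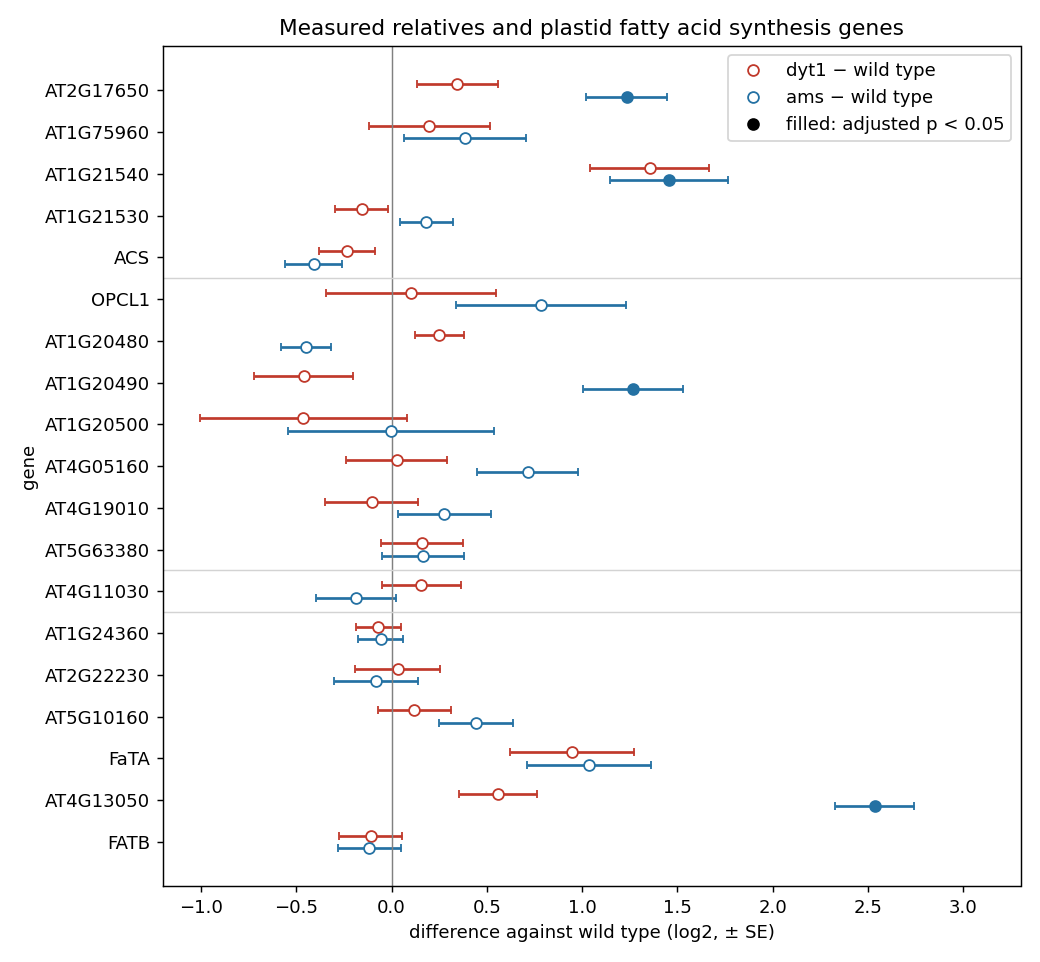
Differences from wild type (log2 ± SE of the limma fit) in dyt1 and ams-labelled arrays for 19 measured genes; from the top the blocks are acyl-activating enzymes, 4-coumarate:CoA ligase relatives, a long-chain acyl-CoA synthetase and plastid fatty acid synthesis, with filled points at an adjusted p under 0.05. The 4 filled points are all ams-labelled minus wild type and all positive, from 1.23 for AT2G17650 to 2.53 for AT4G13050.

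Plastid fatty acid synthesis makes the acyl carrier protein esters that AAE15 also makes. Its list also holds thioesterases, which release fatty acids from those esters, and 6 of its 22 genes were measured. AT4G13050 is listed under the thioesterase name FATA2. It stood at 5.58, 5.99 and 5.66 in dyt1, at 8.13, 7.50 and 7.52 in ams-labelled and at 5.06, 5.32 and 5.17 in wild-type arrays. It rose by 2.53 in the ams-labelled arrays (SE 0.21, limma adjusted p = 0.000389) and was lower in dyt1 than in ams-labelled arrays by a difference of -1.98 (limma adjusted p = 0.00141), and both calls were kept in all 20 alternatives run for it. FaTA and FATB are added for their role, outside the rule for naming genes and with their values seen. FaTA, a thioesterase that releases fatty acids from acyl carrier protein, had differences of 0.95 in dyt1 and 1.04 in the ams-labelled arrays that did not pass (limma adjusted p = 0.247 and 0.120). FaTA read 7.77, 8.31 and 6.80 in wild type 1, 2 and 3, so the low value of wild type 3 enlarges both differences. FATB, the thioesterase that prefers saturated chains, had differences of -0.11 and -0.12 and was not called.

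Few genes of the remaining lists had a probe set. The only measured long-chain acyl-CoA synthetase of 9 listed, AT4G11030, was not told from background. In the phenylpropanoid list, 2 of 16 were measured, HCT and CCR2, enzymes of monolignol synthesis, and neither was called; CCR2 differed by 1.32 in dyt1, with 9.74 and 9.17 in dyt1 1 and 3 but 5.45 in dyt1 2. In the list of peroxisomal beta-oxidation and jasmonate synthesis 2 of 21 were measured, OPCL1 and AIM1, a multifunctional beta-oxidation enzyme that was not called (0.21 and 0.15). None of the 9 genes of sporopollenin synthesis had a named probe set, and they were not analysed here.

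The genes whose 9 values most resembled those of each member were taken by Pearson correlation over 7389 genes with an SD of at least 0.3, as a description of 9 arrays that share genotype, 25S set and normalization. AAE16 was most like AT1G12600 (r = 0.977), AT1G07795 (r = 0.974) and AT1G65560 (r = 0.961), followed by FACT (r = 0.933), an acyltransferase that joins caffeoyl-CoA to fatty alcohols, and AT1G47480 (r = 0.930). All 5 were lower in both mutants, which follows largely from choosing them by their likeness to AAE16. AT1G12600, for example, averaged 5.38 ± 0.16 in dyt1, 5.29 ± 0.30 in ams-labelled and 7.29 ± 0.13 in wild-type arrays (SD, n = 3 each). FACT averaged 4.42 in dyt1, 4.38 in ams-labelled and 5.15 in wild-type arrays, and AT1G47480 averaged 4.197 in dyt1, 3.98 in ams-labelled and 5.52 in wild-type arrays, so the mutant means of both genes were not told from background. After each genotype's mean was removed, the correlation with AAE16 was 0.81 for AT1G12600 and 0.37 for AT1G47480, with the others between these.

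The closest profile to 4CL8 was that of RXF26 (r = 0.961), which averaged 7.73 ± 1.53 in dyt1, 9.32 ± 0.55 in ams-labelled and 6.58 ± 0.33 in wild-type arrays (SD, n = 3 each). ATN1, a protein kinase (r = 0.956), AT2G38090 (r = 0.952), AT2G34810 (r = 0.946) and AT2G42320 (r = 0.941) followed. Like 4CL8, all 5 had their highest mean in the ams-labelled arrays and their lowest in wild type, with dyt1 2 below dyt1 1 and 3. That shared pattern follows largely from choosing the genes by their likeness to 4CL8.

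AAE15 had weaker likenesses, to BAT1 (r = 0.907), an acyltransferase linked to brassinosteroids, UGT74D1 (r = 0.882), a glucosyltransferase acting on auxin, AT1G55050 (r = 0.870), AT1G75960 (r = 0.867), one of the acyl-activating enzymes above, and the cation exchanger CHX20 (r = 0.847). With genotype means removed the correlations were 0.92 for BAT1 and 0.97 for UGT74D1. AAE15 itself had an SD of 0.19 over the 9 arrays, under the minimum asked of the other genes. Its likenesses therefore rest on small differences between arrays, mostly within genotypes. AAE15 and AAE16 correlated with each other at -0.17 over the 9 arrays and at 0.62 with genotype means removed.

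**Figure D5:**
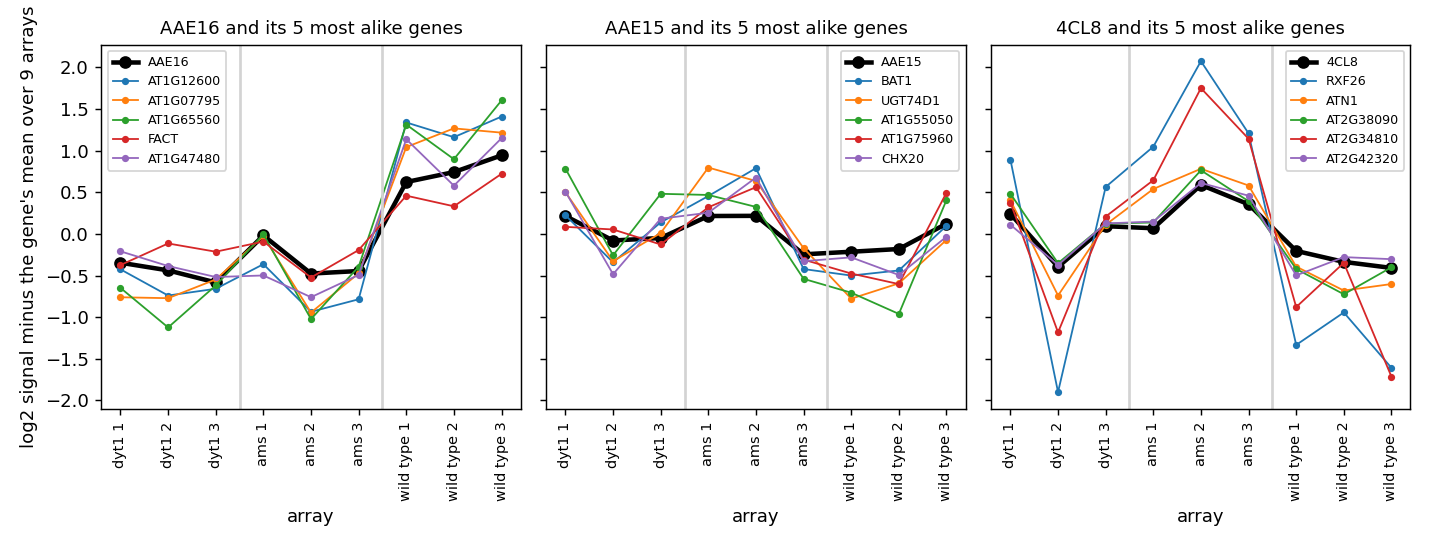
Signal of AAE16, AAE15 and 4CL8 (thick black) and of the 5 genes most like each (thin, coloured) in the 9 arrays, as log2 minus each gene's own mean over the arrays; vertical lines part dyt1, ams and wild type. The AAE16 group lies below its mean in the mutant arrays and above it in wild type, and the 4CL8 group peaks in ams 2 and dips in dyt1 2.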

How the data were processed

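Anther RNA was measured on Affymetrix arrays in 9 samples. The deposited values are log2 signal for each probe set; per the submitters' processing notes the tool was RMA, whose version they do not state. This method subtracts background, equalises array distributions and combines probes, and it compresses differences of dim genes. Whether all arrays were normalized together is not stated. Of 22810 probe sets, 64 controls were left out; of the other 22746, the platform annotation named 13513 with 1 gene and 503 with several, and 8730 are unnamed here. By gene ID 13436 matched RefSeq (TAIR10.1), whose coordinates were used only to order genes along a chromosome for the neighbours. Where a gene had several probe sets, the one with the highest mean was taken.

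Group means over all 9 arrays were fitted in R 4.3.3 by limma 3.58.1 (lmFit, then eBayes), with Benjamini-Hochberg adjustment over 22746 probe sets and calls at an adjusted p under 0.05. The code was tested on simulated data. Genes named were the 3 members, AMS, up to 4 called genes a list and comparison by smallest adjusted p (up to 2 by largest difference where a list had none), any measured acyl-activating or 4CL relative, and the 5 genes most like each member; markers and neighbours named besides were chosen with their values seen. The members and lists were chosen with earlier results of these data known. Alternatives covered centring, normalization, dim probe sets, variance model, array weights, blocks and omitted arrays; subsets by 25S signal were added after seeing the data. The number of arrays limits the precision.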

Additional observations from a re-analysis of the deposited data

How the results depend on the processing

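Of the differences of AAE15, AAE16 and 4CL8, all but a pair moved by less than the larger SD of the groups compared in each alternative run. Within the arrays of high 25S signal the AAE15 difference in dyt1 against wild type was -0.20 and the 4CL8 difference in dyt1 against ams-labelled arrays -0.73. Some alternatives could not move a member's difference: the dim filter, the floor, the replicate block, the variance trend and fitting only the compared groups. Neither could the 25S block in dyt1 against wild type, nor omitting an array of the genotype outside the comparison. Unmoved values under these are not checks. Over omissions of 1 array, the dyt1 minus ams differences ran from -0.19 to 0.04 for AAE15, -0.22 to 0.01 for AAE16 and -0.49 to -0.17 for 4CL8. Deviations from the group means correlated at -0.01 to 0.24 between same-numbered arrays and at -0.27 to 0.14 between differently numbered arrays. Whether the replicate numbers pair the arrays is not settled by these values. Taking the number as a replicate block cannot move the members' differences (AAE16 -1.23 in dyt1), since each genotype has 1 array of each number. With this block, calls over all probe sets numbered 54 (dyt1 against wild type), 545 (ams-labelled against wild type) and 729 (dyt1 against ams-labelled). The fit without it called 44, 798 and 1108. With the block 2 list genes were called in ams-labelled against wild-type arrays, and AT1G21540 (limma adjusted p = 0.0661) and AT1G20490 (0.0733) lost their calls. Between the mutants AT1G20480 lost its call (limma adjusted p = 0.0593). Counts over all probe sets, and list genes among the 22, in dyt1 against wild type were 29 with quantile normalization, 90 with a floor (57 higher and 33 lower, where the main division was 17 and 27), 274 with 25S set as a block, 3720 (3 list genes) without wild type 3 and dyt1 2, 8744 (8) with array weights, 8 with only these groups, 4449 (3) within low and 2544 (1) within high 25S arrays. Centring on array medians gave 10 higher and 34 lower. In ams-labelled against wild type it gave 417 higher and 332 lower, where the main division was 558 and 240. In ams-labelled against wild type they were 7862 (9) without wild type 3 and dyt1 2, 8916 (10) with array weights and 1201 within high 25S arrays, with 2 list genes under the 25S block and with only these groups. In dyt1 against ams-labelled arrays they were 5958 (7) without wild type 3 and dyt1 2, 8956 (12) with array weights, 1979 with only these groups and 3487 within high 25S arrays. Over omissions of 1 array the counts ran from 1 to 702 (0 to 1 list genes), 279 to 4146 (1 to 5) and 354 to 2945 (1 to 5). They were 541, 4146 and 2945 without wild type 3 and 702, 1624 and 2130 without dyt1 2. Within the high 25S arrays dyt1 and wild type have 1 array each, so these counts take the spread from the ams-labelled arrays alone and assume that the lone arrays vary alike. The cause of these changes was not tested. The number of arrays, and for 4CL8 a signal near background, limit what can be resolved.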

Other observations

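Neighbouring genes were looked at after the values had been seen, as the 5 protein-coding genes on each side of each member in RefSeq order. Of 10 neighbours each, 4 were measured for AAE16, 5 for AAE15 and 8 for 4CL8, and limma called none of those of AAE16 or AAE15 in any comparison. Of all probe sets 0.193% were called in dyt1 and 3.51% in ams-labelled against wild-type arrays, and 4.87% between the mutants. With so few neighbours measured, the lack of calls says little about these regions. AT3G23770 near AAE16 had differences of -4.06 in dyt1 and -2.73 in ams-labelled arrays, which did not pass (limma adjusted p = 0.296 and 0.355).

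Near 4CL8, AT5G38160 averaged 4.85 ± 0.13 in dyt1, 9.41 ± 1.21 in ams-labelled and 5.15 ± 0.37 in wild-type arrays (SD, n = 3 each). It rose by 4.26 in ams-labelled against wild-type arrays (limma adjusted p = 0.00316). AT5G38170, the next gene, differed by 3.18 and did not pass (limma adjusted p = 0.0619). ASF1B, a histone chaperone next to 4CL8 on its other side, differed by 0.52 and did not pass (limma adjusted p = 0.248).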
